A study of Mus musculus with 8 samples.

Results

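Ccnd1, Ccnd2, Ccnd3, Cdk4, Cdk6, Cdkn1a, Cdkn1b, Cdkn1c and Rb1 encode the D-type cyclins, the kinases they activate, the Cip/Kip inhibitors and the retinoblastoma protein. These 9 genes were taken by symbol from the 51886 gene rows of the expression table, and all 9 were found and passed the filter on low values. The table describes mouse granulosa cells, the somatic cells that line the ovarian follicle, from the PGR-A KO strain, in which the A isoform of the progesterone receptor is missing. The 4 libraries labelled PGR-A KO came from knockout animals and the 4 labelled WT from wild-type animals. All mice were 21 to 27 days old and received 5 IU eCG, which drives follicle growth, and after 46 h 5 IU hCG, which stands in for the ovulatory surge of luteinising hormone. Granulosa cells were collected 8 h after hCG, and cells of 2 to 3 mice went into each library. Both genotypes were hormone-primed immature mice sampled at a single time, and no group without hCG is part of the comparison. The genetic background, and whether the WT animals were littermates, was not given in the sources used here.

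D-type cyclins bind CDK4 or CDK6, and the active kinases phosphorylate the retinoblastoma protein, which then releases E2F factors that switch on genes for DNA replication. The Cip/Kip proteins p21 (Cdkn1a), p27 (Cdkn1b) and p57 (Cdkn1c) block cyclin-dependent kinases, and the INK4 proteins block CDK4 and CDK6 in particular. Cyclin D2 is the D-type cyclin best known for granulosa cell growth under follicle-stimulating hormone, and p21 and p27 are known for the exit from the cell cycle as these cells luteinise after the ovulatory surge.

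Between the genotypes none of the 9 genes differed beyond the spread between libraries. Cdkn1a and Ccnd3 varied most closely together over the 8 libraries, and Ccnd2 varied the other way. Correlations within a genotype were not measured. In WT replicates 2, 3 and 4 Ccnd3 stood at 38.9, 39.1 and 40.7 TPM and Cdkn1a at 47.3, 35.9 and 43.0 TPM. WT replicate 1 was the highest of all 8 libraries for both, at 60.0 TPM for Ccnd3 and 72.9 TPM for Cdkn1a. The PGR-A KO libraries ran from 37.1 to 54.4 TPM for Ccnd3 and from 35.9 to 70.8 TPM for Cdkn1a. Cdkn1b, Cdk4, Cdkn1c and Rb1 stayed within narrower limits in all 8 libraries. Beside the library-wide range of Cdkn1a and Ccnd3, the sequences just before their annotated starts are shown, with those of Cdkn1b, a gene whose level varied little.

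The RefSeq promoter table (build GRCm38.p6) matched 5 of the 9 members, Ccnd3, Cdk4, Cdk6, Cdkn1a and Cdkn1b. Cdkn1a and Ccnd3 each have 2 annotated starts in it, and the table of gene levels does not separate transcripts from these starts. Each sequence below runs 5′ to 3′ on the plus strand, covers up to 250 bases before the start and stops before the gene's own exons. Capitals mark matches to the motifs searched on both strands: GGGCGG (GC box), TATAA (TATA box core), TGACG and TGACGTCA (cAMP response element, the former contained in the latter), AGAACA (steroid receptor hexamer) and CATG repeated after any 6 bases (a pair of p53-type cores).
Cdkn1a, chr17:29090729-29090975: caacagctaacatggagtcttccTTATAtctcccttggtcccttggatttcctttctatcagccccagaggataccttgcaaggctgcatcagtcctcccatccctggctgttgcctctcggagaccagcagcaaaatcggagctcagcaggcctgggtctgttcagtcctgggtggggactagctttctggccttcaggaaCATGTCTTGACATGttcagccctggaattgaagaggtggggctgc
Cdkn1a, chr17:29093519-29093768: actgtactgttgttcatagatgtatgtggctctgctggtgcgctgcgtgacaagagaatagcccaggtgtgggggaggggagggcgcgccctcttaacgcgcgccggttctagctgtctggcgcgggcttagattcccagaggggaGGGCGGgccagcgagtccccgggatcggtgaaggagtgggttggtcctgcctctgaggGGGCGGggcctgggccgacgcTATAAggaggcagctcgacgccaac
Ccnd3, chr17:47504801-47505050: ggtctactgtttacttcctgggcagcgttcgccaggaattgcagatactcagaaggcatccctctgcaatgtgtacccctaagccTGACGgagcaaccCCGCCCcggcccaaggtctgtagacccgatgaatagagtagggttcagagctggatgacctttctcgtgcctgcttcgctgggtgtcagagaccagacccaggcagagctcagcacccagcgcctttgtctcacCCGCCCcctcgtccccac
Ccnd3, chr17:47593217-47593435: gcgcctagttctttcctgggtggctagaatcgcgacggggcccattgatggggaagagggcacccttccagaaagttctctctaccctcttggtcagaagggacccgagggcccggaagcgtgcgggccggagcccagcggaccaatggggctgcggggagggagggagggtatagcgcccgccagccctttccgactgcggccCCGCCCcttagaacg
Cdkn1b, chr6:134920151-134920400: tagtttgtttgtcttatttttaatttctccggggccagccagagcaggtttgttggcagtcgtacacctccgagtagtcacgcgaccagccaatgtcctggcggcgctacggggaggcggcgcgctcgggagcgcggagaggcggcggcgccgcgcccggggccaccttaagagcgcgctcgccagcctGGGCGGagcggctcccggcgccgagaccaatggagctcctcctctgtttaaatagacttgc
The window before the upstream start of Cdkn1a held the paired core, as CATGTCTTGACATG beginning 48 bases before that start, a pattern found in 0.484% of all 32851 windows cut to the same length of 247 bases. The same window held a TATAA match on the minus strand 227 bases before the start. The window before its downstream start held 2 GC boxes and a TATA match 25 bases before the start. The upstream Ccnd3 window held 2 GC boxes and 1 TGACG match, and the downstream Ccnd3 window and the Cdkn1b window held 1 GC box each. GC boxes occur in 32.7%, TATAA in 22.8% and TGACG in 17.8% of all windows of 250 bases, and in windows cut to 219 bases, the length of the downstream Ccnd3 window, GC boxes occur in 28.3%. TGACGTCA (1.55% of windows of 250 bases) and AGAACA (16.1%) were in none of the 5 windows. These are matches of letters only, and whether any factor binds there was not measured.

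Levels are in TPM, which scale each library to one total and correct for transcript length, so that they can be compared between genes. Each library's TPM summed to between 994519 and 997022, TPM keeps no read depth, and the depth of each library is unknown, so no counting error is given. Pairs of libraries had Pearson r of 0.970 to 0.991 across genes in log2(TPM + 1), and no pair held identical values. Pgr, the gene of the progesterone receptor, stood at 3.21, 3.52, 2.01 and 3.08 TPM in PGR-A KO replicates 1 to 4 and at 1.56, 0.878, 1.41 and 0.756 TPM in WT replicates 1 to 4. Every PGR-A KO library lay above every WT library (log2 change 0.88, SE 0.18, limma adjusted p = 0.445, exact permutation p = 0.0286); a gene-level value does not separate the A isoform from the other, and so does not check the deletion. Along the first principal component of all genes tested, which held 34.9% of the variance, PGR-A KO replicate 3 lay on the side of WT replicates 2, 3 and 4 and WT replicate 1 on that of the other PGR-A KO libraries, and on the second component (20.5%) WT replicate 2 stood apart. In Pgr neither PGR-A KO replicate 3 nor WT replicate 1 crossed into the range of the other genotype. The 2 were neighbours there, as the lowest PGR-A KO library (2.01 TPM) and the highest WT library (1.56 TPM). Both lay with their own genotype in Lyve1, a hyaluronan receptor gene named here after its values were seen. Lyve1 stood at 23.3, 19.6, 35.6 and 18.8 TPM in PGR-A KO and at 267, 161, 155 and 127 TPM in WT, without overlap (log2 change -2.81, SE 0.25, limma adjusted p = 0.00919). Genotype differences of members that rest on PGR-A KO replicate 3 and WT replicate 1 are given with and without them. These 2 libraries were picked by their values in earlier work on these data. Correlations with the principal components, with genes that are not members and with marker sums are given for all 8 libraries only. Markers of granulosa cells were high (Inha, the inhibin alpha subunit, averaged 3808 TPM), and markers of other ovarian cells were present too, such as Gdf9 of oocytes at 222 TPM and Lyz2 of macrophages at 50.3 TPM on average. In such mixed libraries fewer cells of a type and less RNA per cell cannot be told apart.

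In the order of levels Cdk4 stood far above the other members, at 538 TPM on average over the 8 libraries. Ccnd2 (60.6 TPM), Cdkn1b (58.5 TPM), Cdkn1a (53.03 TPM) and Ccnd3 (45.9 TPM) followed as a group whose ranges overlapped from each gene to the next. Ccnd2 exceeded Cdkn1b in 4 of 8 libraries, Cdkn1b exceeded Cdkn1a in 6 of 8, and Cdkn1a exceeded Ccnd3 in 6 of 8, so the order within this group is not fixed. Rb1 (20.8 TPM) and Cdk6 (19.8 TPM) came next and also overlapped, with Rb1 higher in 7 of 8 libraries. Cdkn1c (5.88 TPM) and Ccnd1 (2.42 TPM) were the lowest, and their ranges overlapped neither with each other nor with that of Cdk6.

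**Figure D1:**
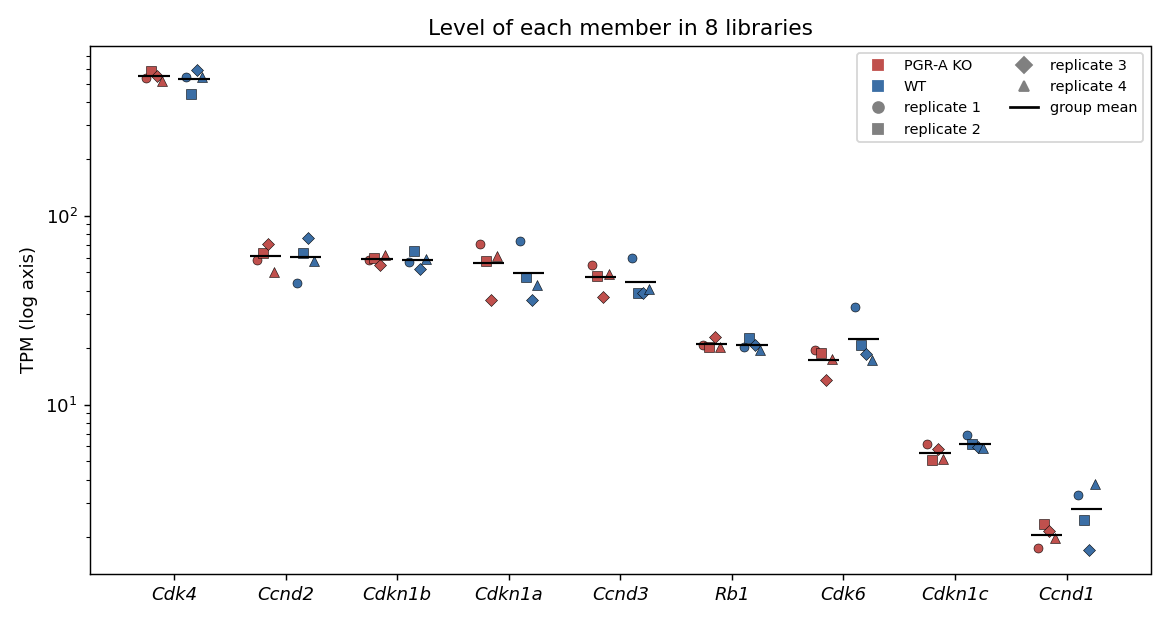
Level of each member in TPM (log axis) in 4 PGR-A KO and 4 WT libraries; each point is 1 library, shapes give the replicate number and black lines the group means. Cdk4 averages 538 TPM, the next 4 genes lie between 45.9 and 60.6 TPM on average, and the genotypes overlap for every member.

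The differences between genotypes were tested with limma on log2(TPM + 1) over the 14472 genes that had at least 1 TPM in at least 4 libraries. Of the 9 members, 0 passed an adjusted p of 0.05, and 0 had an unadjusted p under 0.05, where 0.0138% and 6.31% of all genes tested did. The adjusted p of the members ran from 0.813 to 0.985. The genotypes did not overlap in 0 of the 9 members, against 3.42% of all genes tested. Means on the log2 scale were higher in PGR-A KO for 6 members and lower for 3, with a median log2 change of 0.02, beside -0.02 for all genes tested. With 4 libraries against 4 the exact permutation test over 70 assignments can give no p below 0.0286. That test, 2-sided, is given for single genes below, and no p was adjusted over the members alone.

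**Figure D2:**
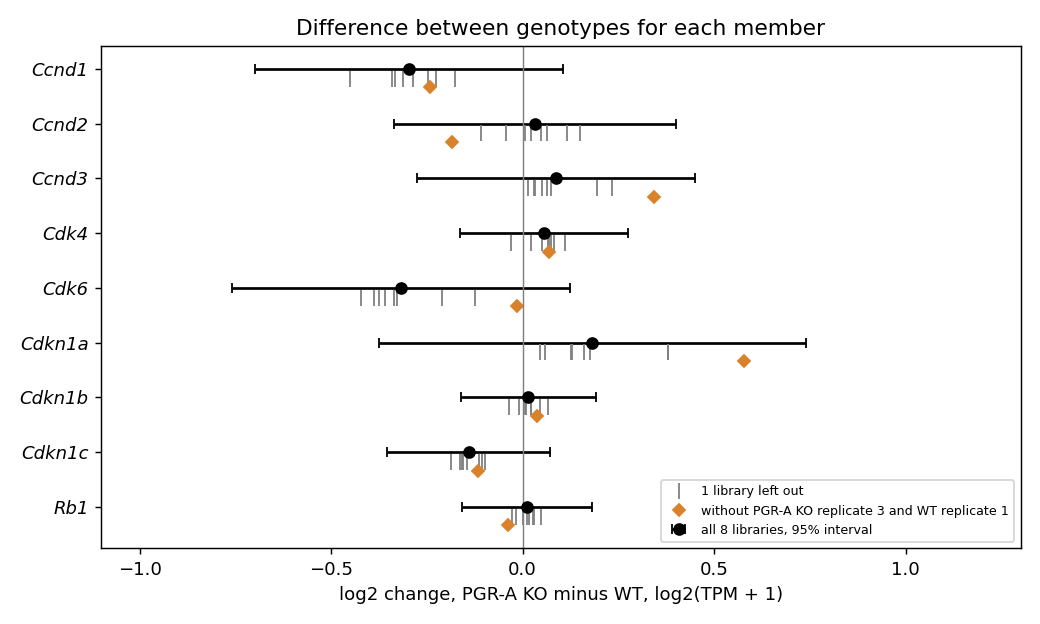
Difference between genotypes for each member as log2 change (PGR-A KO minus WT, from log2 of TPM + 1): black points with 95% intervals from limma use all 8 libraries, grey ticks leave out 1 library, and orange diamonds leave out PGR-A KO replicate 3 and WT replicate 1. All 9 black intervals include 0, and the diamonds of Ccnd3 and Cdkn1a lie farthest to the right, at 0.34 and 0.58.

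Among the D-type cyclins, Ccnd2 and Ccnd3 made up nearly all transcripts and Ccnd1 only a small share. Ccnd2 (ENSMUSG00000000184.12, chromosome 6, 127125162 to 127152193, minus strand, mm10) stood at 58.5, 63.8, 70.9 and 50.4 TPM in PGR-A KO replicates 1 to 4 and at 44.0, 63.2, 75.9 and 57.8 TPM in WT replicates 1 to 4. The highest and the lowest library were both WT, and the PGR-A KO libraries lay between them. The means were 60.9 ± 8.65 TPM for PGR-A KO (SD, n = 4) and 60.2 ± 13.2 TPM for WT (SD, n = 4). Its log2 change of 0.03 (SE 0.16, limma adjusted p = 0.980, exact permutation p = 0.886) had a 95% interval from -0.34 to 0.40.

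Ccnd3 encodes the D-type cyclin that persists in many cells as they differentiate. Ccnd3 (ENSMUSG00000034165.16, chromosome 17, 47505051 to 47599691, plus strand) stood at 54.4, 47.9, 37.1 and 49.1 TPM in PGR-A KO and at 60.0, 38.9, 39.1 and 40.7 TPM in WT. PGR-A KO replicates 1, 2 and 4 lay above WT replicates 2, 3 and 4, PGR-A KO replicate 3 lay below all WT libraries, and WT replicate 1 above all PGR-A KO libraries. The means were 47.1 ± 7.27 TPM (SD, n = 4) and 44.7 ± 10.2 TPM (SD, n = 4). For Ccnd3 the log2 change was 0.09 (SE 0.16, 95% interval -0.28 to 0.45, limma adjusted p = 0.950, exact permutation p = 0.6). A processed pseudogene, Ccnd3-ps, shares 881 bases with it at 96.3% identity, and was listed at 0.0275 TPM on average.

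Ccnd1, widely induced by growth factors in other cells, was hardly expressed. Ccnd1 (ENSMUSG00000070348.5, chromosome 7, 144929931 to 144939925, minus strand) stood at 1.73, 2.32, 2.13 and 1.97 TPM in PGR-A KO and at 3.31, 2.45, 1.70 and 3.78 TPM in WT. WT replicates 1, 2 and 4 lay above every PGR-A KO library and WT replicate 3 below all of them. The log2 change of Ccnd1 was -0.30 (SE 0.18, 95% interval -0.70 to 0.11, limma adjusted p = 0.813, exact permutation p = 0.2), on a scale that understates the change of so low a gene. Without WT replicate 3 the log2 change was -0.45 with an unadjusted limma p of 0.0148 and an adjusted p of 0.997. In that fit 4.22% of all genes had an unadjusted p under 0.05. The 6 markers of the ovarian surface epithelium, all with lower means in PGR-A KO and 0 passing, summed to 57.0 and 56.2 TPM in WT replicates 1 and 4, the libraries with the most Ccnd1, to 39.9 TPM in WT replicate 3, to 49.8 TPM in WT replicate 2 and to 38.9 to 48.0 TPM in PGR-A KO, and none of the 6 was listed at 0. Their part in the Ccnd1 values was not tested. Ccnd1 overlaps LTO1 on the opposite strand, which stood at 11.0 TPM on average; whether the counting used strand was not given in the sources used here, so their reads cannot be told apart.

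Of the partner kinases, Cdk4 held 94.3% to 97.6% of the summed Cdk4 and Cdk6 TPM in every library. Cdk4 (ENSMUSG00000006728.12, chromosome 10, 127063534 to 127067920, plus strand) stood at 536, 584, 551 and 516 TPM in PGR-A KO and at 545, 439, 590 and 539 TPM in WT. WT replicate 2 was the low library, and the other 7 lay within the span from 516 to 590 TPM. Cdk4 had a log2 change of 0.06 (SE 0.10, 95% interval -0.16 to 0.28, limma adjusted p = 0.947, exact permutation p = 0.714). Cdk4 shares 641 bases with Tspan31, a gene on the opposite strand at 127 TPM on average.

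Cdk6, the other D-type cyclin kinase, was low and varied more. Cdk6 (ENSMUSG00000040274.11, chromosome 5, 3341485 to 3531008, plus strand) stood at 19.4, 18.7, 13.5 and 17.4 TPM in PGR-A KO and at 32.7, 20.7, 18.5 and 17.2 TPM in WT. WT replicate 1 lay far above and PGR-A KO replicate 3 below the other 6 libraries, whose values ran together across genotypes. The means were 17.2 ± 2.65 TPM for PGR-A KO (SD, n = 4) and 22.3 ± 7.14 TPM for WT (SD, n = 4). Cdk6 had a log2 change of -0.32 (SE 0.20, 95% interval -0.76 to 0.12, limma adjusted p = 0.823, exact permutation p = 0.286). With PGR-A KO replicate 3 and WT replicate 1 left out, the log2 change of Cdk6 was -0.02 (SE 0.09, limma adjusted p = 0.945).

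Among the Cip/Kip inhibitors, Cdkn1a varied widely between libraries and Cdkn1b hardly at all. Cdkn1a (ENSMUSG00000023067.14, chromosome 17, 29090976 to 29100727, plus strand), the p53-inducible gene of p21, stood at 70.8, 57.2, 35.9 and 61.4 TPM in PGR-A KO and at 72.9, 47.3, 35.9 and 43.0 TPM in WT. The highest library was WT replicate 1, and PGR-A KO replicate 3 stood level with WT replicate 3 at the bottom. The means were 56.3 ± 14.8 TPM (SD, n = 4) and 49.8 ± 16.1 TPM (SD, n = 4). The log2 change of Cdkn1a was 0.18 (SE 0.25, limma adjusted p = 0.932, exact permutation p = 0.543). Its 95% interval, -0.38 to 0.74, is the widest of the 9, and corresponds to ratios of 0.771 to 1.67 on that scale.

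Cdkn1b (ENSMUSG00000003031.14, chromosome 6, 134920401 to 134925513, plus strand), the gene of p27, stood at 57.9, 59.9, 55.1 and 62.0 TPM in PGR-A KO and at 57.1, 64.7, 52.2 and 58.8 TPM in WT. The highest library was 1.24 times the lowest, and both were WT. The means were 58.7 ± 2.93 TPM (SD, n = 4) and 58.2 ± 5.14 TPM (SD, n = 4). For Cdkn1b the log2 change was 0.02 (SE 0.08, limma adjusted p = 0.980, exact permutation p = 0.857). The 95% interval for Cdkn1b, -0.16 to 0.19, corresponds to ratios between 0.894 and 1.14 on that scale, so a change beyond these bounds lies outside the interval. p27 is known to be controlled largely through its translation and breakdown, which transcript levels do not show.

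Cdkn1c, the imprinted gene of p57, was the lowest of the inhibitors. Cdkn1c (ENSMUSG00000037664.13, chromosome 7, 143458339 to 143461050, minus strand) stood at 6.16, 5.07, 5.78 and 5.17 TPM in PGR-A KO and at 6.87, 6.14, 5.97 and 5.86 TPM in WT. PGR-A KO replicates 2, 3 and 4 lay below every WT library, and PGR-A KO replicate 1 lay above WT replicates 2, 3 and 4. Between genotypes Cdkn1c had a log2 change of -0.14 (SE 0.09, 95% interval -0.35 to 0.07, limma adjusted p = 0.837, exact permutation p = 0.143).

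Rb1, the substrate of the D-type cyclin kinases, varied least of the 9. Rb1 (ENSMUSG00000022105.6, chromosome 14, 73183673 to 73325822, minus strand) stood at 20.71, 20.05, 22.75 and 20.23 TPM in PGR-A KO and at 20.2, 22.5, 20.8 and 19.5 TPM in WT. The highest library was 1.16 times the lowest. Rb1 had a log2 change of 0.01 (SE 0.08, 95% interval -0.16 to 0.18, limma adjusted p = 0.985, exact permutation p = 0.83). Of all genes tested, 5.71% had a smaller SD over the 8 libraries than Rb1 and 13.8% a smaller one than Cdkn1b, against 91.7% for Cdkn1a, 86.6% for Cdk6 and 80.6% for Ccnd1. Exons of Rb1 overlap Rcbtb2 and Lpar6 on the other strand, and those of Ccnd3 overlap Bysl (11.5 TPM).

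The calls of Ccnd3 and Cdkn1a depended on the pair of libraries that lay with the other genotype on the first principal component. In Pgr and Lyve1 this pair did not cross into the range of the other genotype. With PGR-A KO replicate 3 and WT replicate 1 left out, Cdkn1a had a log2 change of 0.58 (SE 0.12, limma adjusted p = 0.0306) and Ccnd3 one of 0.34 (SE 0.07, limma adjusted p = 0.0322), so that 2 of 9 members passed, where 8.01% of the 14114 genes in that fit passed. In these 6 libraries Cdkn1a stood at 57.2 to 70.8 TPM in PGR-A KO and at 35.9 to 47.3 TPM in WT, without overlap. Ccnd2 then had a log2 change of -0.18 (SE 0.12, limma adjusted p = 0.408), opposite in sign to that of all 8 libraries. The left-out libraries were picked by their values, so these calls do not measure an effect of genotype.

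The summed D-type cyclin transcripts differed little between libraries, from 101 to 117 TPM, while their makeup shifted. Ccnd2 made up 51.0%, 55.9%, 64.4% and 49.7% of the sum in PGR-A KO and 41.0%, 60.5%, 65.0% and 56.5% in WT. WT replicate 1 was the single library with more Ccnd3 than Ccnd2, at a Ccnd2 to Ccnd3 ratio of 0.733, and PGR-A KO replicate 3 and WT replicate 3 had the highest ratios, 1.91 and 1.94. Ccnd1 made up 1.46% to 3.70%. The mean Ccnd2 share was 55.3% ± 6.66 (SD, n = 4) in PGR-A KO and 55.8% ± 10.4 (SD, n = 4) in WT.

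The summed Cip/Kip transcripts ranged more widely, from 94.0 to 137 TPM, almost wholly through Cdkn1a. Cdkn1a made up 52.5%, 46.8%, 37.1% and 47.8% of the sum in PGR-A KO and 53.3%, 40.1%, 38.1% and 39.9% in WT. It exceeded Cdkn1b in PGR-A KO replicate 1 and WT replicate 1 and lay below it in the other 6 libraries. Cdkn1c made up 4.02% to 6.35%. The ratio of Ccnd2 to Cdkn1a, cyclin to inhibitor, spanned 0.603 in WT replicate 1 to 2.12 in WT replicate 3, with PGR-A KO libraries at 0.826, 1.12, 1.98 and 0.822. Ratios of members within a library do not change with its scaling.

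**Figure D3:**
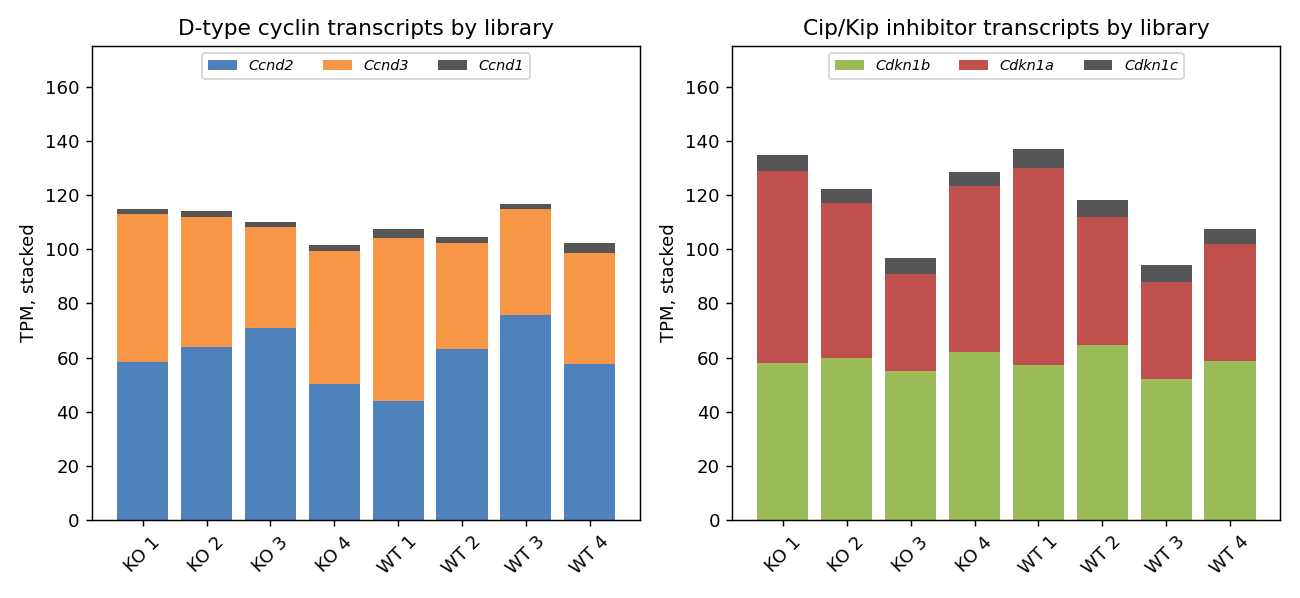
Stacked TPM of the 3 D-type cyclins (left) and the 3 Cip/Kip inhibitors (right) in each library, bars starting at 0. The cyclin sums stay between 101 and 117 TPM while the Ccnd2 part runs from 44.0 to 75.9 TPM, and the inhibitor sums run from 94.0 to 137 TPM with a nearly constant Cdkn1b part.

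The members fell into different patterns across the libraries. Over the 8 libraries log2(TPM + 1) of Cdkn1a and Ccnd3 had a Pearson r of 0.95 (Spearman rho 0.93), the only one of 36 pairs of members with an r of 0.8 or more. Their r was 0.93 in the 6 libraries other than PGR-A KO replicate 3 and WT replicate 1, and 0.91 without the 2 libraries farthest out in Ccnd3. Ccnd2 ran against Cdkn1a with an r of -0.81 (rho -0.76), the only pair at -0.8 or below, and its r with Ccnd3 was -0.80 (rho -0.74). These were -0.62 and -0.59 without the 2 libraries farthest out in Ccnd2, WT replicates 1 and 3. Cdk4 and Cdkn1b had an r of -0.77, which was -0.24 without WT replicates 2 and 3. In 27 of the 36 pairs r lay between -0.5 and 0.5. All points share the libraries' composition, and the values are descriptions without a test.

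The order of Cdkn1a over the libraries was that of the first principal component of all genes tested, on which PGR-A KO replicates 1, 2, 3 and 4 lay at 20.7, 10.6, -25.8 and 16.4 and WT replicates 1, 2, 3 and 4 at 21.2, -3.55, -20.9 and -18.5. The r with this component was 0.98 for Cdkn1a, 0.92 for Ccnd3 and -0.74 for Ccnd2. An r of that size in either direction was found for 0.394%, 6.17% and 29.1% of all genes tested. The other 6 members had r between -0.39 (Rb1) and 0.62 (Cdk6), and Cdkn1b had 0.43. Cdk4 followed the second component instead, with an r of 0.82, where WT replicate 2 stood apart.

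**Figure D4:**
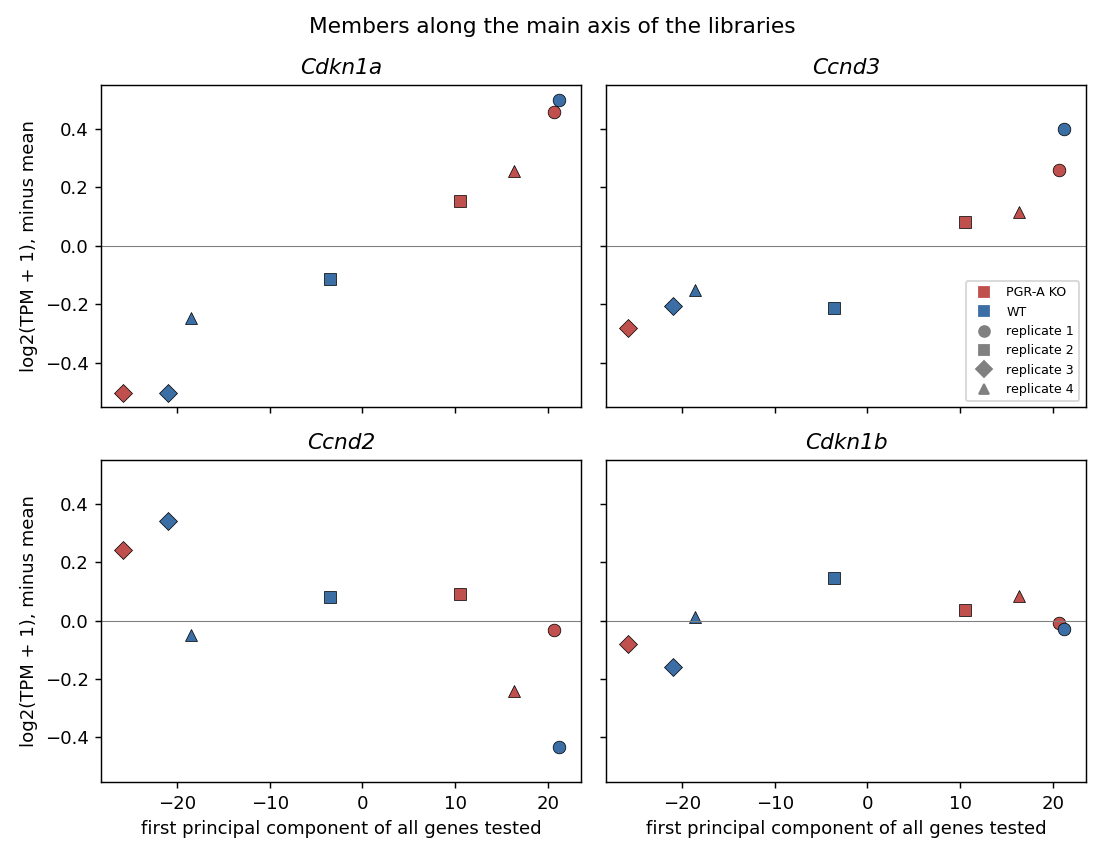
Level of 4 members, as log2(TPM + 1) minus the gene's mean, against the position of each library on the first principal component of all genes tested; red points are PGR-A KO, blue points WT, shapes the replicate number. Cdkn1a climbs along the axis with PGR-A KO replicate 3 and WT replicate 3 at the bottom left and WT replicate 1 at the top right, Ccnd2 runs the other way, and Cdkn1b stays near 0.

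The genes most like each member were sought among 10253 genes with a mean of at least 5 TPM. Cdkn1a was most like Ephx2 (r = 0.996), which encodes soluble epoxide hydrolase and ran from 3291 to 6454 TPM, and Baiap2 (0.993), and 616 genes reached an r of 0.9. Ccnd3 was most like Smarcd3 (0.989), a subunit of the SWI/SNF chromatin remodelling complex, and C2cd2l (0.987), with 565 genes at 0.9 or more. Cdk6 was most like Egfr (0.995), the receptor of EGF-like factors, at 26.7 to 56.3 TPM, and Bcl2l13 (0.995), with 182 such genes. Ccnd2 was most like the translation factor gene Eif4b (0.978) and Pwp1 (0.969), with 37 such genes.

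Cdk4 was most like Akap1 (0.978) and Rnaseh2c (0.977). Fewer genes resembled the remaining members. For Ccnd1 4 genes reached 0.9, led by Hp (0.946) and the keratin gene Krt19 (0.942), and for Rb1 also 4, led by Irgm1 (0.962) and Lap3 (0.924). Cdkn1b had 2, Rbbp9 (0.912) and Cbwd1 (0.902), and Cdkn1c had 1, Dnajb4 (0.902), followed by the small heat shock protein gene Hspb1 (0.899). These values rest on 8 libraries and are given as a description.

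Cell type markers varied between the libraries too, some with Cdkn1a and some against it. Which cells held these transcripts was not measured. Cdkn1a had an r of 0.98 with the first principal component, and many genes followed that component. Over all genes tested the median r with it was 0.57 in size, and 21.6% reached 0.8 in either direction. An r of such size with Cdkn1a is therefore not particular to a cell type. The 4 cumulus expansion markers Tnfaip6, Has2, Ptx3 and Ptgs2 summed to 328, 250, 102 and 207 TPM in PGR-A KO and to 271, 147, 121 and 102 TPM in WT. Their sum had an r of 0.94 with Cdkn1a on the log2 scale, and all 4 had a positive r. The most abundant of them, Ptx3, a matrix protein of the expanding cumulus, was also highest in WT in replicate 1, at 110 TPM. The sum of the T and NK cell markers had an r of 0.83, at only 6.25 to 9.97 TPM in PGR-A KO and 5.95 to 9.38 TPM in WT, with the T cell genes Cd3e and Cd3d listed at 0 in some libraries. Surface epithelium markers had an r of 0.60, with 6 of 6 positive. Endothelial markers had an r of 0.55, with 5 of 6 tested positive, and summed to 16.3 to 28.7 TPM in PGR-A KO and 21.0 to 42.4 TPM in WT.

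Other lists ran against Cdkn1a. The smooth muscle and pericyte markers summed to 59.7 to 89.5 TPM in PGR-A KO and 59.5 to 99.8 TPM in WT (r = -0.93, 0 of 5 tested positive). The 8 macrophage markers summed to 53.4 to 111 TPM and 83.2 to 112 TPM (r = -0.70, 0 of 8 positive). The oocyte markers summed to 816 to 1457 TPM and 596 to 1115 TPM (r = -0.46, 0 of 10 positive). The erythroid markers had an r of -0.34 and the neutrophil markers, with Ngp listed at 0 in some libraries, one of -0.28. The sums of the granulosa, theca and stromal lists had r of 0.27, 0.28 and -0.07. Single genes had a positive r in 4 of 10, 2 of 7 and 1 of 7 cases. Hsd3b1, at 2089 TPM on average, made up most of the theca sum. The part of these markers in the range of Cdkn1a was not tested, and their relation to Ccnd3 and Ccnd2 was not measured.

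Of the other genes of the pathway, 0 passed in any of 9 lists. Among the INK4 inhibitors Cdkn2c and Cdkn2d were tested and Cdkn2a and Cdkn2b were under the filter. Cdkn2d, the most abundant, stood at 31.83, 28.03, 18.87 and 27.00 TPM in PGR-A KO and at 29.6, 19.7, 19.3 and 23.4 TPM in WT (log2 change 0.19, SE 0.18, limma adjusted p = 0.898). As for Cdkn1a, its lowest levels included PGR-A KO replicate 3 and WT replicate 3, and it had an r of 0.89 with the first component. Of all genes tested, 9.43% had as large an r with it in either direction.

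Of the 12 pocket protein and E2F genes, 8 had a higher mean in PGR-A KO and 4 a lower one, and the median log2 change was 0.06. Their most abundant member, the E2F partner Tfdp1, stood at 80.8 ± 5.63 TPM (SD, n = 4) and 77.9 ± 9.27 TPM (SD, n = 4), and the lowest p was that of E2f5 (log2 change 0.19, limma adjusted p = 0.861). The DREAM complex holds cell cycle genes silent in resting cells. The list named for it was wider than this complex, and its tested genes were Lin9, Lin37, Lin52, Rbbp4, Mybl1, Mybl2 and Dyrk1a. Of these 7 genes 4 were higher and 3 lower (median 0.00). Rbbp4 had both the highest level and the lowest p of the list (log2 change -0.12, limma adjusted p = 0.796). The list of late G1 cyclins and kinases also held regulators of these kinases (Ccne1, Ccne2, Cdk2, Cdc25a, Cdk7, Ccnh, Mnat1 and Wee1). Of its 8 genes 5 were higher and 3 lower, with a median of 0.08. Cdk7, of the CDK-activating kinase, was the most abundant at 37.1 TPM.

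Ccne2, an E-type cyclin that acts after the D-type cyclins, had the lowest unadjusted limma p in these lists, 0.0234. Ccne2 stood at 13.3, 16.2, 15.8 and 12.3 TPM in PGR-A KO and at 9.98, 10.9, 12.8 and 11.9 TPM in WT. PGR-A KO replicate 4 lay below WT replicate 3, and the other PGR-A KO libraries lay above all WT libraries. The log2 change of Ccne2 was 0.31 (SE 0.11), with a limma adjusted p of 0.776.

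Most genes of DNA replication and division had slightly higher means in PGR-A KO, and 0 passed. WT replicate 2 had the lowest sum of both lists. Its S phase genes summed to 863 TPM, against 947 to 1115 TPM in the other libraries. Its mitosis genes summed to 934 TPM, against 994 to 1188 TPM in the others. The part of WT replicate 2 in the counts below was not tested. Of 20 S phase genes 15 were higher and 5 lower (median log2 change 0.06), and of 20 mitosis genes 17 were higher and 3 lower (median 0.06), beside 42.6% of all genes tested with a higher mean. Pcna, the sliding clamp of DNA polymerase, had both the highest level and the lowest p among the S phase genes and stood at 172 ± 12.0 TPM for PGR-A KO (SD, n = 4) and 154 ± 14.3 TPM for WT (SD, n = 4) (limma adjusted p = 0.797). Cdk1, the mitotic kinase, stood at 159 ± 6.23 TPM (SD, n = 4) and 154 ± 7.18 TPM (SD, n = 4), and the mitosis gene of the lowest p was Nusap1 (log2 change 0.16, limma adjusted p = 0.803). All 10 oocyte markers also had higher means in PGR-A KO (median log2 change 0.24), 0 passing, and their part in the replication and mitosis values was not tested.

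The turnover genes, mostly ubiquitin ligase subunits that remove cyclins and inhibitors, split into 8 with a higher mean and 7 with a lower one (median 0.06). Skp1 was the most abundant at 328 TPM. Ddb1, an adaptor of the CUL4 ligase, stood at 233, 242, 237 and 235 TPM in PGR-A KO and at 265, 245, 296 and 253 TPM in WT, without overlap, and had a log2 change of -0.16 (SE 0.07, limma adjusted p = 0.783, exact permutation p = 0.0286).

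Of 16 upstream regulators 4 were higher and 12 lower in PGR-A KO, with a median of -0.10. Foxo1, a transcription factor known to hold Ccnd2 and follicular growth in check, stood at 63.2, 77.7, 103 and 67.7 TPM in PGR-A KO and at 64.6, 130, 130 and 116 TPM in WT (log2 change -0.47, SE 0.24, limma adjusted p = 0.795). WT replicate 1 was the low WT library and PGR-A KO replicate 3 the high PGR-A KO library, the reverse of Cdkn1a. The r of Foxo1 with the first component was -0.87, and 12.3% of all genes tested had one as large in either direction. Ctnnb1, which encodes beta-catenin, was the most abundant of the list at 356 TPM.

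Of 15 p53 targets 5 were higher and 10 lower, with a median of -0.04. Their most abundant member, the apoptosis gene Bax, stood at 121 ± 9.70 TPM (SD, n = 4) and 124 ± 10.2 TPM (SD, n = 4). Sesn1, a stress-response gene, had the lowest unadjusted limma p of the list, 0.0430, with a log2 change of -0.26 (SE 0.11, limma adjusted p = 0.783). Its r with the first component was -0.84, opposite in sign to that of Cdkn1a. As large an r, in either direction, was found for 16.5% of all genes tested. Of the 15 p53 targets 9 had a positive r with Cdkn1a, and the sum of all 15 had an r of 0.30.

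**Figure D5:**
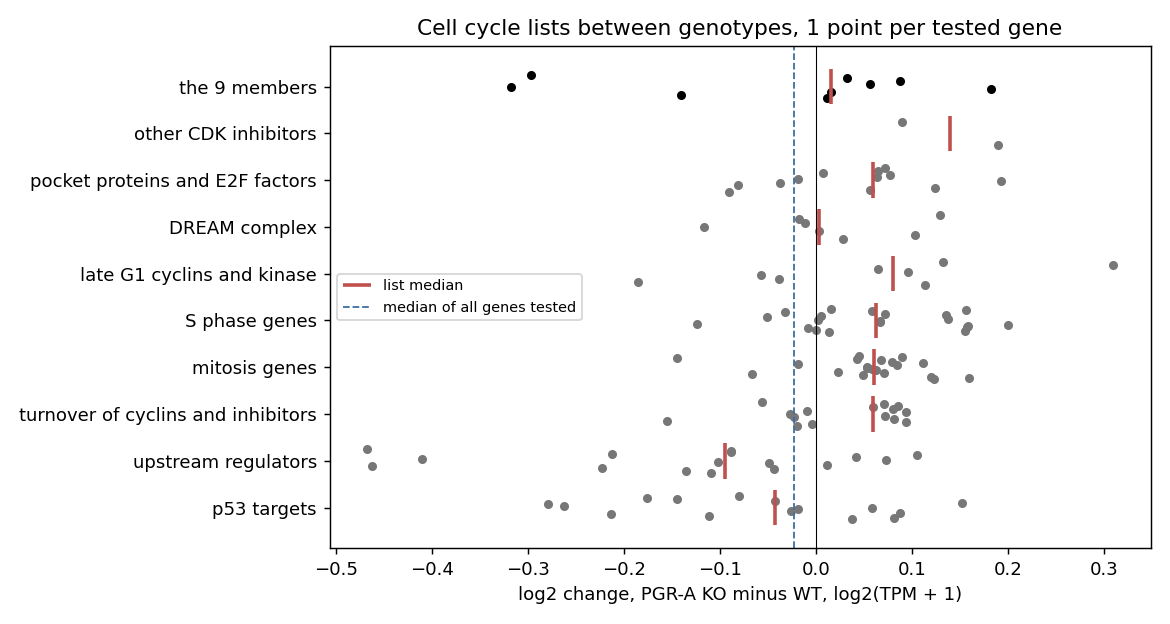
Log2 change, PGR-A KO minus WT, of each tested gene in the 9 members and the 9 pathway lists; red bars mark list medians and the dashed line the median of all genes tested (-0.02). No point passed an adjusted p of 0.05, and the list medians lie between -0.10 and 0.14.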

How the data were processed

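Expression of mRNA was measured in 4 PGR-A KO and 4 WT libraries, grouped by sample title. The authors deposited a table of TPM for 51886 gene symbols. Tools named in the submitters' processing notes are FastQC, Salmon, limma and edgeR, with no versions or roles, and the build is mm10. Libraries were made with a TruSeq mRNA kit and sequenced paired-end, per the labels' protocols. Annotation, strand setting and summing of transcripts to genes: not given in the sources used here. Depth is unknown, so no count test was run, and precision rests on the spread between pools of mice.

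The test was limma 3.58.1 (R 4.3.3) on log2(TPM + 1), with a trended prior and no covariate, for the 14472 genes reaching 1 TPM in 4 or more of the 8 libraries. Its 2-sided p-values received Benjamini-Hochberg adjustment across all of them. Single genes were also compared by exact permutation (scipy 1.17.1). The steps were tested on simulated data.

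The members and lists were chosen with earlier results of these data known. Named genes are every member, Pgr, the most abundant and the lowest-p gene of each cell cycle list, the 2 genes most correlated with each member, and the most abundant marker of a cell type. Skp1a and Lin54 had no row. Positions are from GENCODE M21 (mm10), upstream sequences from RefSeq (GRCm38.p6), and shared stretches of at least 200 bases and 95% identity from BLASTN 2.17.0. Alternatives were pseudocounts of 0.1 and 5, no filter or a minimum of 5 TPM, TMM factors or quantile normalization, robust or untrended empirical Bayes, a replicate block, and libraries left out.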

Additional observations from a re-analysis of the deposited data

Results flagged for a closer look

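In groups of 4 libraries, a library was picked out when its gap to the nearest other exceeded Dixon's 95% critical value. This was met by 5 of 74 groups of members and named genes, where chance gives about 3.7, and by 1 of the 18 groups of members. Ccnd3 stood at 60.0 TPM in WT replicate 1, above the other WT libraries at 38.9 to 40.7 TPM. Ptx3 was also high in WT replicate 1, at 110 TPM against 43.6 to 50.6 TPM. Sesn1 was high in PGR-A KO replicate 3, at 23.9 TPM against 19.7 to 20.3 TPM. Lyz2 was high in PGR-A KO replicate 3, at 70.3 TPM against 30.7 to 35.6 TPM. Hsd3b1, a steroidogenic enzyme gene, was high in WT replicate 2, at 3401 TPM against 1846 to 2060 TPM.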

How the results depend on the processing

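Of 161 values of single members under 18 alternatives, 150 kept their direction and side of the threshold, among them all 80 under another pseudocount, filter, scaling or limma setting or the block; TMM and quantile scaling moved the median of all genes from -0.02 to 0.00 and 0.01. With 1 library left out, 7 values changed sign: the log2 change of Ccnd2 ran from -0.11 (WT replicate 1 left out) to 0.15 and was -0.044 with PGR-A KO replicate 3 left out. That of Cdk4 ran from -0.030 (WT replicate 2) to 0.11, that of Cdkn1b from -0.035 (WT replicate 3) to 0.067, with -0.010 for PGR-A KO replicate 4, and that of Rb1 from -0.028 (PGR-A KO replicate 3) to 0.048, with -0.016 for WT replicate 4. With both PGR-A KO replicate 3 and WT replicate 1 left out, Ccnd2 (-0.18) and Rb1 (-0.039) changed sign. In that fit 2 members (Cdkn1a and Ccnd3) and 1131 genes passed the threshold. The unadjusted limma p was under 0.05 for 2 members and for 25.1% of the 14114 genes. The cause of these shifts was not tested. With 1 library left out, 0 members passed, 0 to 1 had an unadjusted p under 0.05 (Ccnd1, WT replicate 3 left out), and 0 (WT replicate 2) to 6 genes (PGR-A KO replicate 3) passed, against 2 with all libraries; a pseudocount of 5 gave 1. With the replicate block 1 member, Cdk6, had an unadjusted limma p under 0.05 (0.0462, adjusted p = 0.520), as had 1368 of all genes. Whether the numbers pair the libraries was not given in the sources used here, and the values do not settle it. Deviations from the group means of same-numbered libraries correlated at 0.36, -0.11, 0.39 and -0.29. Not every library correlated best with its own number. With the block 9.45% of all genes had an unadjusted limma p under 0.05, against 6.31% without it. The minimum of 5 TPM left no value for Ccnd1. Depth is unknown, and Ccnd1 and Cdkn1c are the lowest members.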
